A study of Mus musculus with 6 samples.

Results

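The 10 genes described here encode core proteins of mitochondrial fusion (Mfn1, Mfn2 and Opa1), fission (Dnm1l, Fis1 and Mff) and mitophagy (Pink1, Bnip3, Bnip3l and Fundc1). They were chosen by name from the 55076 gene rows measured in the anterior prostate (AP), and each of them passed the filter on low values that left 12833 rows for testing. In OEx mice, the fission GTPase gene Dnm1l was 3.32-fold higher than in Ctrl mice, while the fission adaptor gene Fis1, the fusion gene Mfn2 and the mitophagy genes Pink1 and Bnip3 were 2.51-fold, 2.54-fold, 3.16-fold and 4.69-fold lower. Opa1 was higher by less than the fold criterion, and Mfn1, Mff, Bnip3l and Fundc1 did not pass the test. These are ratios of group means of the deposited values, and their size depended on the processing. After a correction for GC content Dnm1l was at 0.93 on the log2 scale, under the fold criterion, and Opa1 did not pass. With scaling by library totals Fis1 was at -0.53 and Mfn2 at -0.49.

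Mitochondria form a network that is joined by fusion and cut by fission. The mitofusins tether and fuse outer membranes, Opa1 fuses inner membranes, and the dynamin-like GTPase encoded by Dnm1l is recruited by outer membrane adaptors to constrict and divide the organelle. Mitophagy is the removal of mitochondria by autophagy, either through the kinase Pink1 and ubiquitin or through outer membrane receptors such as Bnip3, Bnip3l and Fundc1 that bind proteins of the forming autophagosome.

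Total RNA of whole AP was sequenced from 3 OEx and 3 Ctrl male mice at 20 weeks of age to learn what overactive Notch1 signaling changes in this tissue. OEx mice carried Pbsn-Cre and 1 Rosa26 N1ICD allele, so that the Notch1 intracellular domain was expressed in prostatic epithelium, where the probasin promoter is active, and other cell types of the AP were sequenced with it. The labels give the Ctrl genotype as wild type, and the study describes Ctrl mice as Rosa26 N1ICD/+ without Cre. No Cre-only group was analysed here. The Notch1 gene, whose values do not separate the transgene from the endogenous gene, was at 41.9, 47.6 and 78.9 FPKM in OEx mice and at 5.18, 5.55 and 3.34 FPKM in Ctrl mice, in the direction of the labels. FPKM, fragments per kilobase of gene and per scaled library size, is a level per length, so that genes can be compared within a mouse.

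The files held 14762189 to 18650969 reads on annotated genes per mouse, recovered from the FPKM values. At this depth 3 reads correspond to 0.161 to 0.203 CPM (counts scaled to library size), a floor that covers counting error only, and every gene of the set had at least 99 reads in each mouse. The most abundant gene of Ctrl mice, 9530053A07Rik, held 14.3% to 22.0% of their reads, and the most abundant gene of OEx mice at most 1.12%. The deposited FPKM values had been scaled between mice in a way that places the median of all tested genes near 0, at a log2 fold change of -0.078, whereas scaling by library totals places it at 0.56. Seminal vesicle genes took 1.31% of the reads in Ctrl replicate 3 and at most 3.25e-04% in any other mouse. Within each group, replicate 3 was farther from replicates 1 and 2 than these were from each other. The first 2 had a median chi-square per gene of 1.17 in OEx and 1.03 in Ctrl mice against 5.38 to 6.40 for pairs with replicate 3. Counting error alone would give a mean of about 1 per gene and a median below that, so the medians for replicates 1 and 2 were above counting error. For replicates 1 and 2 the mean was 4.29 in OEx and 3.06 in Ctrl mice. Over the genes of the set it was 3.15 and 0.726, against 21.9 to 33.4 for pairs with replicate 3. Replicates 1 and 2 were kept as separate mice because the labels list them so. The labels do not say more about how the mice were obtained, so p-values measure the spread between these samples. Independence of these replicates was not tested. Standard errors and p-values computed with 3 mice per group assume it, and could be too small without it.

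The groups were tested in limma on log2(FPKM + 1), a scale that understates the fold change of low genes, with a Benjamini-Hochberg false discovery rate (FDR) over all 12833 rows. A gene was past the FDR when the FDR was under 0.05, and was called when its fold change was also over 2, the criteria that the study states. Of the 10 genes, 2 were past the FDR and higher and 4 were past it and lower, where 30.7% and 36.5% of all tested genes were. By both criteria 1 was called higher and 4 were called lower, beside 12.9% and 15.7% of all tested genes. The groups did not overlap for 8 of the 10 genes, as they did not for 72.4% of all tested genes. The median log2 fold change of the 10 genes was 0.11, with a range from -1.84 to 1.51.

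**Figure D1:**
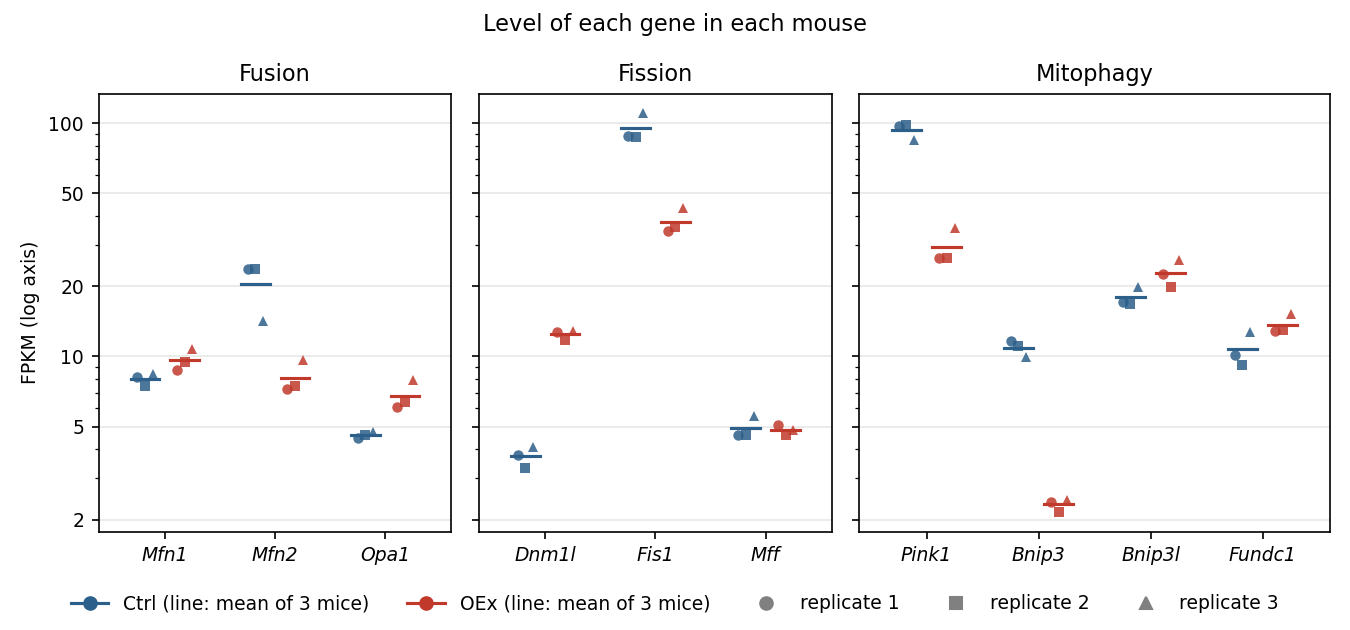
Level of each of the 10 genes in FPKM (log axis) in each of the 3 Ctrl mice (blue) and the 3 OEx mice (red), with the mean of each group as a line and the replicate number as the symbol, grouped by role. Dnm1l sits higher in all OEx mice, Mfn2, Fis1, Pink1 and Bnip3 sit lower, and the groups overlap for Mff and Bnip3l.

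To show the sequence next to the start of genes that differed between groups, the 250 bases before the most 5′ start in the RefSeq promoter table are printed for the called gene that was higher, Dnm1l, and for the called genes that hold a match to a core motif of the Notch partner CSL or of hypoxia-inducible factors, Fis1 and Bnip3. This table, of GRCm38.p6, held 9 of the 10 genes, and its sequences read 5′ to 3′ on the strand of the gene. The last 13 bases of the Bnip3 window lie inside the GENCODE gene, whose start is farther 5′, as do 17 bases of the Mfn1 window and 11 of the Pink1 window. All 250 bases of the Fundc1 window lie inside its GENCODE gene, so that window is not upstream of the GENCODE start. Capitals mark TGGGAA, the core of the CSL site, and ACGTG, the core of the hypoxia response element, on either strand.
Dnm1l, chr16:16359032-16359281, minus strand: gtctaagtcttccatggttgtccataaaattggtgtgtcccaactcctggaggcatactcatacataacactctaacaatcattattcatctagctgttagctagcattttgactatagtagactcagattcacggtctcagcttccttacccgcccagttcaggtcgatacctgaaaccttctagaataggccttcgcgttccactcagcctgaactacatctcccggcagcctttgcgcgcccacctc
Fis1, chr5:136953025-136953274, plus strand: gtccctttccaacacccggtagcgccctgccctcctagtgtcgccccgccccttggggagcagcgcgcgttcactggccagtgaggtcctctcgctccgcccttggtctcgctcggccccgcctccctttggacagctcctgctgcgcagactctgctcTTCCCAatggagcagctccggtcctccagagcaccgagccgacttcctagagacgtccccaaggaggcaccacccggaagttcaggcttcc
Bnip3, chr7:138909507-138909756, minus strand: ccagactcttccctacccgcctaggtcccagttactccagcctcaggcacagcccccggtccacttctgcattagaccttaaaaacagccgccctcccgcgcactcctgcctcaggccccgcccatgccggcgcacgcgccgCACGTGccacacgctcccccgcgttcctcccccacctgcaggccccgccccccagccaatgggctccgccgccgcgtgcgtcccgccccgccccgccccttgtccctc
Among the 9 genes, TGGGAA was found in Fis1 alone, on the reverse strand and 91 bases before the start, and 21.59% of 32851 such windows hold it. ACGTG was found in Bnip3 alone, in 2 overlapping matches within one palindrome, CACGTG, which starts 108 bases before the start of Bnip3. Of all windows, 16.57% hold ACGTG and 6.021% hold CACGTG, a motif known as an E-box. CACGCG, a class C site bound by Hes and Hey repressors, was found in Pink1 and at 2 places in Bnip3, and 7.616% of all windows hold it. CACNAG, the N-box, was found in Fis1, as in 36.67% of all windows. These are matches of letters in 1 window per gene, and no binding was measured here.

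The fusion genes did not move together. Mfn2, the mitofusin that also tethers mitochondria to the endoplasmic reticulum, lies on chr4:147873599-147904704 (GRCm38, minus strand). It was at 7.22, 7.44 and 9.63 FPKM in OEx mice and at 23.8, 23.6 and 14.2 FPKM in Ctrl mice. The highest OEx mouse lay under the lowest Ctrl mouse, and Ctrl replicate 3 stood below the other two Ctrl mice. Its difference was -1.22 on the log2 scale (SE 0.215, limma FDR 0.00244), and it was -1.45 without Ctrl replicate 3. Mfn1, the other mitofusin, on chr3:32529465-32579239, was at 8.76, 9.48 and 10.8 FPKM in OEx mice and at 8.17, 7.50 and 8.45 FPKM in Ctrl mice. The groups lay side by side without overlap, and the difference did not pass the test (log2 fold change 0.24, 95% confidence interval -0.01 to 0.48, limma FDR 0.0770). Opa1, the GTPase of the inner membrane, on chr16:29579334-29654884, was at 6.05, 6.40 and 7.91 FPKM in OEx mice and at 4.46, 4.63 and 4.74 FPKM in Ctrl mice. It rose by less than the fold criterion (0.47 on the log2 scale with a standard error, SE, of 0.111, limma FDR 0.00907), with no overlap between groups. That result did not hold when replicates 1 and 2 were averaged and counted as 1 mouse (log2 fold change 0.51, limma FDR 0.0579), or after a correction for GC content (0.13, limma FDR 0.305).

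The 3 fission genes went 3 ways. Dnm1l, which encodes Drp1, lies on chr16:16312230-16358959 (minus strand). It was at 12.7, 11.7 and 12.9 FPKM in OEx mice and at 3.79, 3.34 and 4.10 FPKM in Ctrl mice, and the lowest OEx mouse was far above the highest Ctrl mouse. On the log2 scale the difference was 1.51 (SE 0.0952, limma FDR 4.61e-05), higher than that of 94.4% of the tested genes. Fis1, the small tail-anchored protein of the outer membrane that can bind Drp1, on chr5:136953275-136966234, had the highest mean level of the 10 genes in both groups. It was at 34.5, 35.9 and 43.1 FPKM in OEx mice and at 88.1, 87.0 and 110.1 FPKM in Ctrl mice. Each OEx mouse lay below each Ctrl mouse, and the difference on the log2 scale was -1.30 (SE 0.133, limma FDR 2.26e-04). Mff, the principal outer membrane adaptor for Drp1, on chr1:82724890-82752394, was at 5.07, 4.63 and 4.86 FPKM in OEx mice and at 4.59, 4.59 and 5.57 FPKM in Ctrl mice. Its groups overlapped, and the difference of -0.01 on the log2 scale had a 95% confidence interval of -0.25 to 0.23 (limma FDR 0.918). The value of Mff depended on the processing. It was at -0.81 after a correction for GC content and at 0.64 with library totals, both past the FDR with limma (2.86e-04 and 0.00354). After a correction for GC content and exon length it was at -1.08 (limma FDR 2.50e-04) and called lower.

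Of the mitophagy genes, the kinase gene and 1 receptor gene fell. Pink1, the kinase that accumulates on damaged mitochondria and phosphorylates ubiquitin, lies on chr4:138313409-138326307 (minus strand). It was at 26.5, 26.4 and 35.5 FPKM in OEx mice and at 96.8, 98.4 and 84.3 FPKM in Ctrl mice. The groups were far apart, with a difference of -1.64 on the log2 scale (SE 0.138, limma FDR 1.12e-04). Bnip3, an outer membrane receptor known as a target of hypoxia-inducible factor, on chr7:138890836-138909519 (minus strand), was at 2.39, 2.16 and 2.42 FPKM in OEx mice and at 11.7, 11.1 and 9.97 FPKM in Ctrl mice. Each OEx value rests on 99 to 112 reads and each Ctrl value on 325 to 343 reads. Bnip3 was the lowest of the 10 genes by fold change, at -1.84 on the log2 scale (SE 0.0940, limma FDR 2.94e-05), with 3.36% of the tested genes below it.

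Bnip3l, also known as Nix, the receptor that clears mitochondria from maturing red blood cells, on chr14:66985239-67008877 (minus strand), was at 22.7, 19.8 and 25.8 FPKM in OEx mice and at 17.2, 16.8 and 19.8 FPKM in Ctrl mice. OEx replicate 2 overlapped Ctrl replicate 3, and the difference of 0.32 on the log2 scale did not pass the test (95% confidence interval 0.03 to 0.61, limma FDR 0.0507). Fundc1, a receptor of hypoxia-induced mitophagy on chrX:17556564-17572325 (minus strand), was at 12.8, 13.0 and 15.2 FPKM in OEx mice and at 10.2, 9.22 and 12.7 FPKM in Ctrl mice. Its OEx mice lay just above its highest Ctrl mouse, with a log2 fold change of 0.33 (95% confidence interval 0.01 to 0.65, limma FDR 0.0644). Both genes were near the threshold. Without Ctrl replicate 3 their limma FDRs were 0.0299 for Bnip3l and 0.0107 for Fundc1, and without OEx replicate 2 that of Bnip3l was 0.0319. After the GC correction the log2 fold changes were -0.17 and -0.39, and the latter was past the FDR as lower (limma FDR 0.0196).

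**Figure D2:**
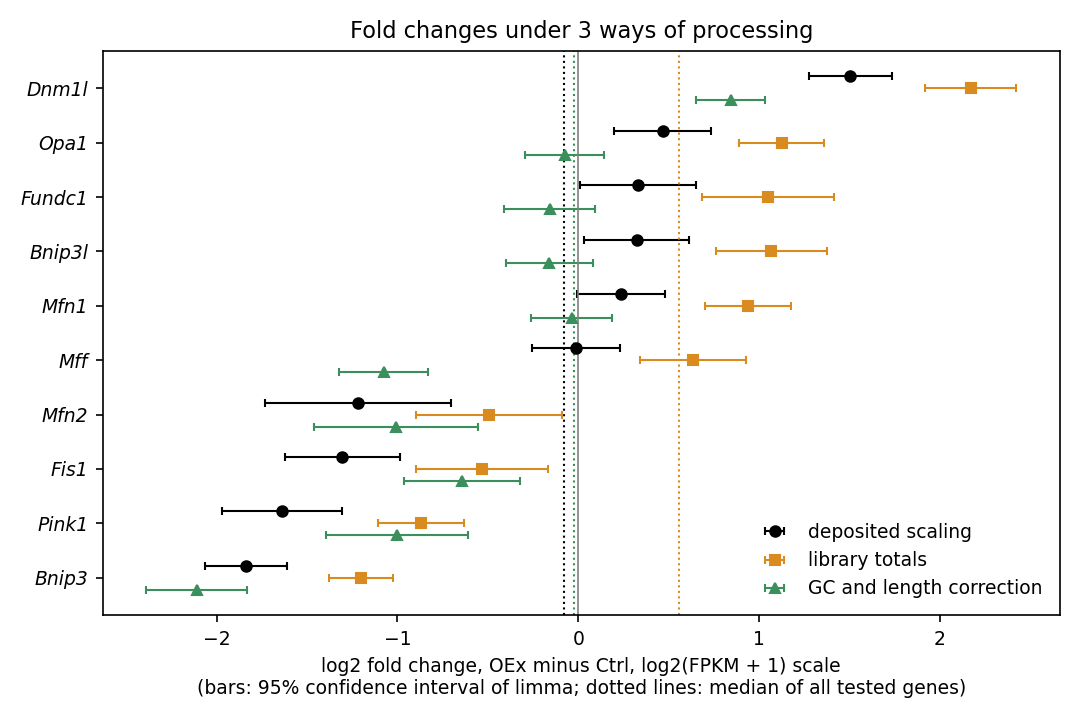
Log2 fold change of each gene (OEx minus Ctrl, log2(FPKM + 1) scale) with the 95% confidence interval from limma, for the deposited scaling (black), library totals (orange) and after correction for GC content and exon length (green). Dotted lines mark the median of all tested genes, at -0.078, 0.56 and -0.025, and Dnm1l stays above 0 and Mfn2, Fis1, Pink1 and Bnip3 stay below 0 in all 3.

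The number of the 10 genes counted as higher moved with the scaling between mice, and the number past the FDR and lower did not. With library totals, Dnm1l, Opa1, Mfn1, Bnip3l, Fundc1 and Mff were past the FDR and higher, and Mfn2, Fis1, Pink1 and Bnip3 were past it and lower, where 56.9% and 14.0% of all tested genes were. By the fold criterion as well, 4 were then called higher and 1, Bnip3, was called lower, beside 30.6% and 4.59% of all tested genes. Relative to the median of all tested genes, the log2 fold change was -1.76 for Bnip3 with the deposited scaling and -1.76 with library totals. For Pink1 these distances were -1.56 and -1.43, for Fis1 -1.23 and -1.09, for Mfn2 -1.14 and -1.05, and for Dnm1l 1.58 and 1.61.

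Fold changes over all genes also moved with base composition. Genes past the FDR and higher had a median GC content of 46.0%, and those past it and lower 52.7%. Dnm1l has a GC content of 40.9%, Opa1 43.5% and Mfn1 45.9%, and Pink1 has 59.0%, Fis1 54.4% and Mfn2 53.1%. Bnip3, with 41.6%, has the GC content of the genes that were higher and was lower in OEx mice. Mff with 37.3%, Fundc1 with 38.8% and Bnip3l with 41.9% also have a low GC content and were not past the FDR. Genes past the FDR and higher had a median exon length of 5225.5 bases, and those lower 2915. Fis1 has 1714, Bnip3 2265 and Pink1 2673 bases, but Mfn2 has 5194, beside 5203 for Dnm1l. After the GC correction Dnm1l was at 0.93, Bnip3 at -2.35, Pink1 at -1.19, Fis1 at -0.96 and Mfn2 at -0.92 on the log2 scale, all with a limma FDR under 0.05. By the fold criterion as well, 2 of the 10 genes were then called lower, Bnip3 and Pink1, and 0 were called higher, beside 12.2% and 11.4% of all tested genes. Other settings moved the count of genes past the FDR and higher as well, and the share of all tested genes is given with each. Of the 10 genes, 6 were past it and higher with library totals without the 20 most abundant genes (41.3% of all tested genes), 5 with upper-quartile scaling (39.6%), 1 with the GC correction (30.6%), 1 with the GC and length correction (28.6%), 1 with replicates 1 and 2 averaged (23.0%) and 4 with a replicate block (26.8%). Without Ctrl replicate 3 they were 4 (30.6%). Past the FDR and lower were 4 with the block (32.1%), 6 with the GC correction (32.6%), which added Mff and Fundc1, and 5 with GC and length (31.9%), which added Mff. Called lower were 2 without the 20 most abundant genes (9.38%), and with GC and length 4 were called lower (10.6%), Bnip3, Pink1, Mfn2 and Mff but not Fis1 at -0.64, and 0 were called higher (10.8%). The part of base composition in these differences was not tested further.

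Ratios of 2 genes within a mouse do not depend on the scaling between mice, but do depend on corrections that differ between genes, and 5 of them were compared between groups. Each exact permutation test of 3 against 3 mice gave a two-sided p of 0.1, the smallest this design allows, and 0.1 after Benjamini-Hochberg adjustment over the 5 ratios. These tests count the replicates of a group as independent mice. The level of Mfn1 relative to Mfn2 was 1.21, 1.27 and 1.12 in OEx mice and 0.344, 0.318 and 0.593 in Ctrl mice. Mfn1 thus made up 52.8% to 56.0% of the mitofusin level in OEx mice and 24.1% to 37.2% in Ctrl mice.

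The ratio of Bnip3 to its relative Bnip3l was 0.105, 0.109 and 0.0938 in OEx mice and 0.679, 0.661 and 0.502 in Ctrl mice, which is 5.93-fold lower in OEx mice. Bnip3 made up 8.57% to 9.84% of the level of both receptors in OEx mice and 33.4% to 40.5% in Ctrl mice. Fis1 relative to Dnm1l was at 2.72, 3.06 and 3.34 in OEx mice and at 23.2, 26.1 and 26.9 in Ctrl mice, an 8.36-fold difference, the largest of the 5 ratios with the deposited values. Fis1 relative to Mff, the 2 adaptors, was at 6.81, 7.77 and 8.88 in OEx mice and at 19.2, 19.0 and 19.8 in Ctrl mice. For Dnm1l relative to Opa1, a fission to a fusion GTPase, the ratio was 2.10, 1.84 and 1.63 in OEx mice and 0.852, 0.722 and 0.865 in Ctrl mice. In each of the 5 ratios no OEx mouse overlapped a Ctrl mouse with the deposited values. Each ratio holds a gene whose own groups did not overlap, as those of 72.4% of single tested genes did not. The share over ratios of other gene pairs was not computed. On the log2(FPKM + 1) scale after the GC correction, the difference of Fis1 to Mff was -0.15 with overlapping groups, against -1.29 before it, and after the GC and length correction it was 0.44, in the other direction. Fis1 to Dnm1l was then 3.71-fold and 2.80-fold lower in OEx mice on that scale, against 7.01-fold before, and Bnip3 to Bnip3l was 4.54-fold and 3.86-fold lower, against 4.48-fold before. The other two ratios kept their direction, with no overlap between groups, at 1.01 and 0.97 for Mfn1 to Mfn2 and 0.80 and 0.92 for Dnm1l to Opa1 on the log2 scale.

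**Figure D3:**
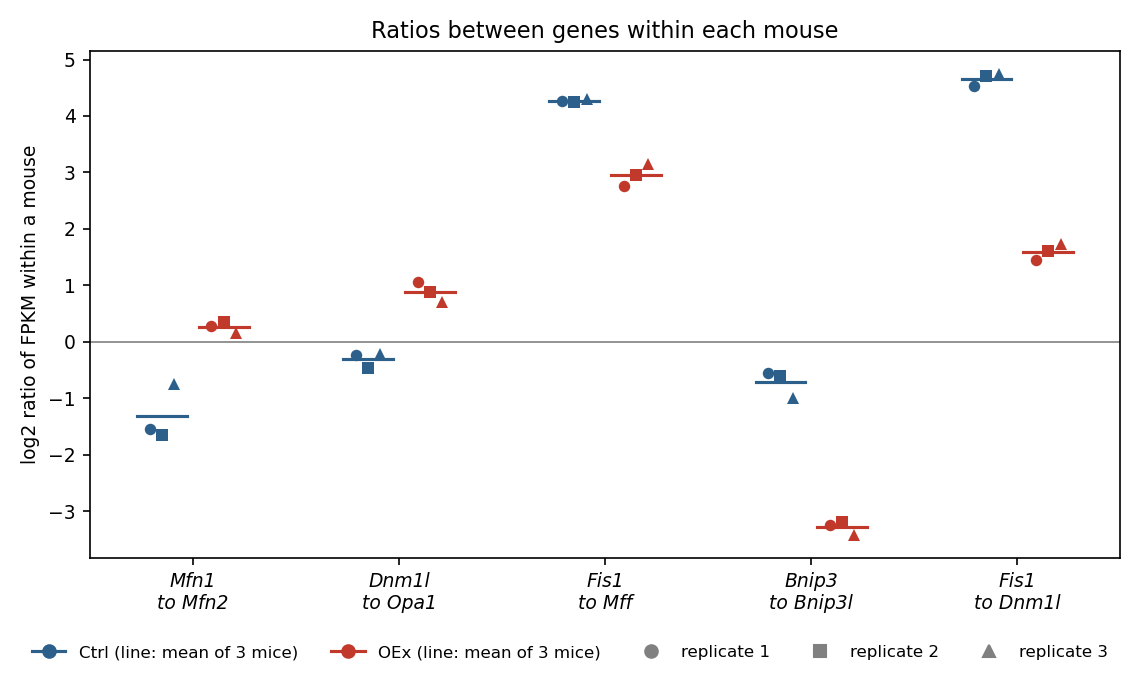
Log2 ratio of the FPKM values of 2 genes within each of the 3 Ctrl mice (blue) and the 3 OEx mice (red), with the group mean as a line and the replicate number as the symbol, from the deposited values. The groups are apart in each ratio, by 1.58 for Mfn1 to Mfn2 and 1.19 for Dnm1l to Opa1 and by -1.31 for Fis1 to Mff, -2.57 for Bnip3 to Bnip3l and -3.06 for Fis1 to Dnm1l (OEx minus Ctrl).

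The order of the levels differed between groups. In Ctrl mice the order by mean FPKM was Fis1, Pink1, Mfn2, Bnip3l, Bnip3, Fundc1, Mfn1, Mff, Opa1 and Dnm1l. Dnm1l was the lowest there, and its range did not meet that of its neighbour Opa1. In OEx mice the order was Fis1, Pink1, Bnip3l, Fundc1, Dnm1l, Mfn1, Mfn2, Opa1, Mff and Bnip3. Dnm1l was at rank 5 there, and Bnip3 went from rank 5 to the lowest rank, with no overlap with Mff. The ranges over mice overlapped in Ctrl mice for Fis1 and Pink1, Mfn2 and Bnip3l, Bnip3 and Fundc1, and Mff and Opa1, and in OEx mice for Fis1 and Pink1, Fundc1 and Dnm1l, Mfn1 and Mfn2, and Mfn2 and Opa1.

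Partners of the 10 genes were followed in lists of known fusion, fission, mitophagy and autophagy genes. Over these 5 lists, 56 of 62 genes were tested, of which 11 (19.6%) were past the FDR and higher and 27 (48.2%) were past it and lower with limma, beside 30.7% and 36.5% of all tested genes. Their median log2 fold change was -0.35. With library totals 31 (55.4%) were higher and 10 (17.9%) lower, with a median of 0.32, beside 56.9% and 14.0% of all tested genes, whose median moved by the same scaling. These shares of all tested genes apply to the counts of each list below. Over these 5 lists and those of abundant mitochondrial proteins and hypoxia, 15 of 80 tested genes were past the FDR and higher and 44 lower. With the GC and length correction they were 7 and 53, beside 28.6% and 31.9% of all tested genes.

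Among partners of fusion and of Opa1 processing, 3 of 10 tested genes rose and 3 fell, and with library totals 7 rose and 1 fell. Yme1l1, the inner membrane protease that cleaves Opa1, rose by 1.07 on the log2 scale, and Miga1, mitoguardin, which promotes fusion at the outer membrane, by 0.69. The prohibitins, the scaffold of the inner membrane that stabilizes long Opa1, fell, Phb with a log2 fold change of -1.05 and Phb2 of -0.95. Of 11 tested adaptors and regulators of fission, 2 rose and 6 fell, with a median of -0.47. With library totals 6 rose and 2 fell, with a median of 0.25. All tested genes had a median of -0.078 with the deposited scaling and 0.56 with library totals, above that of this list in each. The values below are from the deposited scaling. The largest decreases were those of Mtfp1, an inner membrane protein of fission, at -1.28, and of the ubiquitin and SUMO ligase Mul1 at -0.95. Senp5, a SUMO protease that acts on Drp1, and Mtfr1 were higher, at 0.55 and 0.54.

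In the list of Pink1 and ubiquitin genes 3 of 9 tested genes rose and 4 fell, and with library totals 5 rose and 1 fell. Parl, the protease that cleaves Pink1, was 2.12-fold lower and Vcp, the segregase that extracts ubiquitinated outer membrane proteins, 2.02-fold lower by the means. Usp15, a deubiquitinase, and Tbk1, a kinase of mitophagy adaptors, were higher by 0.98 and 0.83.

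Of the other receptors and cargo adaptors, 1 of 9 tested genes rose and 4 fell, and with library totals 3 rose and 2 fell. Tax1bp1, a ubiquitin-binding cargo adaptor, was at 38.8, 38.0 and 37.1 FPKM in OEx mice and at 6.54, 6.71 and 8.24 FPKM in Ctrl mice. It had the largest increase of all listed partners (2.26 on the log2 scale, SE 0.101, limma FDR 2.46e-05). Its GC content is 39.6%, and its value after a GC correction is not given here. Sqstm1, which encodes the adaptor p62, went the other way, at 84.3, 86.0 and 97.2 FPKM in OEx mice and at 253, 254 and 201 FPKM in Ctrl mice, a difference of -1.39 on the log2 scale (limma FDR 1.32e-04). Nlrx1 fell by 0.96. Calcoco2 was listed at 0 in all 6 mice.

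In the autophagosome core, 2 of 17 genes rose and 10 fell, with a median of -0.40. With library totals 10 rose and 4 fell, with a median of 0.34. The median of all tested genes was -0.078 with the deposited scaling and 0.56 with library totals, above that of this list in each. The decreases were led by 2 of the small ubiquitin-like proteins to which mitophagy receptors bind, Map1lc3a at -1.93 (limma FDR 4.32e-05) and Gabarap at -1.64 (limma FDR 1.14e-04). Map1lc3b, Gabarapl1 and Gabarapl2 of the same family, named after their values were seen, were at -0.94, -1.02 and -1.22, each with a limma FDR under 0.05. Ulk1, the kinase that starts autophagy, was higher by 0.77 and Tbc1d15, a Rab7 regulator that binds Fis1, by 0.45.

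Genes of abundant mitochondrial proteins were lower in most cases, which stands beside each gene of the set that was lower. Of 11 such genes 8 (72.7%) fell and 2 (18.2%) rose, with a median of -0.69, beside 36.5% and 30.7% of all tested genes. Cycs, cytochrome c, was at -1.20 and Tomm20, the import receptor, at -1.01, and the mitochondrial DNA packaging factor Tfam and the chaperone Hspd1 were at 0.53 and 0.49. With library totals 1 of these 11 genes (9.09%) was past the FDR and lower and 4 (36.4%) were past it and higher, with a median of 0.058. Of all tested genes, whose median was 0.56 under that scaling, 14.0% and 56.9% were lower and higher. Mfn2, Fis1, Pink1 and Bnip3 were past the FDR and lower under that scaling too. The part of mitochondrial content in the differences of the genes of the set was not tested.

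Bnip3 was set beside a list of other genes known to be induced by hypoxia, which also holds Hif1a and Epas1, genes of hypoxia-inducible factors themselves. Of 13 tested genes of that list 9 (69.2%) fell and 2 (15.4%) rose, with a median of -0.92, beside 36.5% and 30.7% of all tested genes. With library totals 6 (46.2%) were past the FDR and lower and 4 (30.8%) higher, beside 14.0% and 56.9% of all tested genes. Epas1, at -0.92, is among the 9 that fell. Ddit4 was at 16.6, 19.4 and 18.6 FPKM in OEx mice and at 166, 167 and 167 FPKM in Ctrl mice, a difference of -3.13 on the log2 scale (limma FDR 1.42e-05). Ldha, lactate dehydrogenase A, followed at -2.60 (limma FDR 3.00e-05). Hif1a, the gene of the factor itself, was higher, at 11.8, 11.5 and 9.50 FPKM in OEx mice and at 3.24, 3.31 and 4.79 FPKM in Ctrl mice, a difference of 1.33 on the log2 scale (limma FDR 3.70e-04), and Ankrd37 was at 0.58. Bnip3l, also known to respond to hypoxia, was at 0.32 and did not pass the test.

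**Figure D4:**
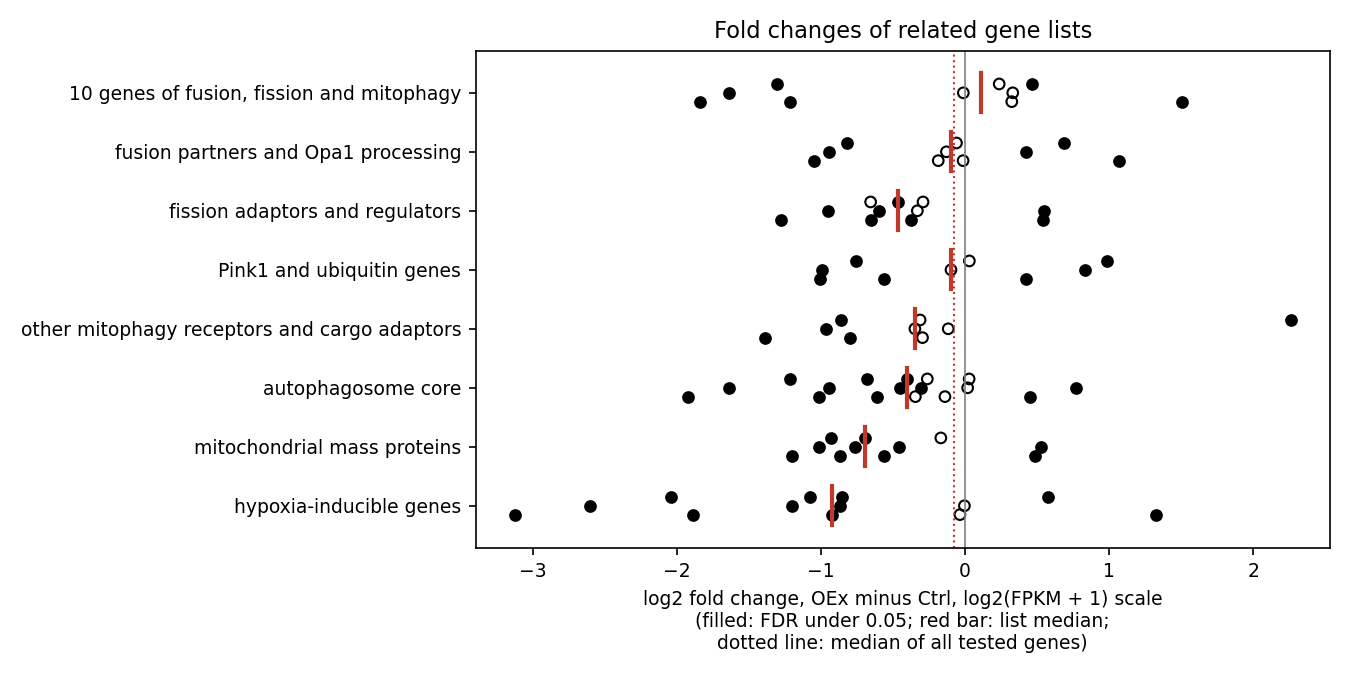
Log2 fold change (OEx minus Ctrl, log2(FPKM + 1) scale) of the 10 genes and of each tested gene of the 7 related lists, with filled points past a limma FDR of 0.05, a red bar at the median of each list and a dotted line at the median of all tested genes. List medians run from -0.92 for hypoxia-inducible genes to -0.095 for fusion partners, beside -0.078 for all tested genes and 0.11 for the 10 genes, whose points lie on both sides of 0.

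Markers of cell types also moved with the group. The summed FPKM of 4 basal cell genes was 6.28 to 8.67 in OEx and 103 to 125 in Ctrl mice, and 3 of the 4 fell, with library totals too. The exception was Dst, not past the FDR with the deposited scaling and past it as higher with library totals. All 5 smooth muscle genes fell, 3 of them also with library totals, with sums of 351 to 418 FPKM in OEx and 1043 to 2245 FPKM in Ctrl mice. The skeletal muscle list, in which Acta1 held most of the signal and the defining myosins Myh4 and Myh1 were at 0 in all mice, summed to 25.0 to 32.0 FPKM in OEx and 186 to 430 FPKM in Ctrl mice. In whole AP, fewer cells of a type and less RNA per cell cannot be told apart, and the part of these cell types in the differences of the 10 genes was not tested. The smooth muscle sum of Ctrl replicate 3, at 2245 FPKM, was above those of Ctrl replicates 1 and 2, at 1062 and 1043 FPKM, and it had the lowest Mfn2, Pink1 and Bnip3 levels and the highest levels of the other 7 genes among the 3 Ctrl mice.

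Epithelial genes, the cell type of Pbsn-Cre, were present in all mice, with sums of 1004 to 1322 FPKM in OEx and 1498 to 1740 FPKM in Ctrl mice over 4 genes. Krt8 and Krt18 fell, Cdh1 rose by 0.63 on the log2 scale, and Epcam was at 0.45 without passing the test. By share of reads the list was higher in OEx mice, at 0.2997% to 0.350% against 0.223% to 0.235%, and with library totals 3 of the 4 genes were past the FDR and higher and 1 was past it and lower. Of 5 luminal secretory genes 4 fell and 1 rose, and with library totals 3 fell and 1 rose. Pbsn, whose promoter drives Cre, was at -2.60 on the log2 scale, and Msmb was at 4.60. The fibroblast sums were 233, 238 and 23.6 FPKM in OEx mice and 52.7, 51.2 and 91.3 FPKM in Ctrl mice, so that OEx replicate 3 stood apart from the other two OEx mice. The immune sums were at 19.1, 18.7 and 4.36 FPKM in OEx mice and at 4.35, 4.66 and 10.3 FPKM in Ctrl mice. Without OEx replicate 3, the same numbers of the 10 genes were called, 1 higher and 4 lower. Over all 12833 tested genes that fit called 1726 higher and 2032 lower, against 1653 and 2021 with all mice.

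Some exons overlap other annotated genes. The exons of Dnm1l share 243 bases with the antisense gene Gm49521, which had 0 to 3 reads, and those of Bnip3 share 504 bases with the antisense gene Gm45507, which was at 0 in all mice. Mff shares 195 bases with C430014B12Rik, which had 1 to 11 reads, and Pink1 holds 2 microRNA genes that were listed at 0. Counting by strand is not stated, so reads of such pairs cannot be told apart.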

How the data were processed

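Total RNA of whole AP from 3 OEx and 3 Ctrl mice was sequenced by the authors, who deposited 1 FPKM value per gene symbol and mouse. The submitters' processing notes name HISAT2 2.0.5, featureCounts 1.5.0-p3, StringTie 1.3.3b and CASAVA without their roles, and the genome build and the FPKM denominator are not given in the sources used here. Of 55076 rows, 53636 were matched by symbol to the GENCODE annotation of GRCm38. Reads were recovered from the deposited FPKM values and exon lengths, and 96.9% to 97.5% of values were whole within 0.05 reads. Depth was 14762189 to 18650969 reads per mouse, and its floors cover counting error only.

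Two-sided p-values came from limma 3.58.1 (R 4.3.3), fitted to log2(FPKM + 1) of rows averaging at least 1 FPKM, with a term for group and an intensity trend. The plan had allowed for counts or FPKM, and the fit written for FPKM was used. Steps were checked on simulated data. Named genes were the 10 genes, in each list up to 2 higher and 2 lower genes past the FDR with the largest fold changes, and cell type markers. The 10 genes and the lists were chosen with earlier results of these data known. Alternatives were other scalings, filters, pseudocounts and tests, a replicate block, leaving out each mouse and, added after the data were seen, corrections for GC content and length (lowess with a span of 0.3, for 97.1% of rows) and averaging replicates 1 and 2. Other steps used pandas 2.3.3, numpy 2.4.6, statsmodels 0.14.6, scipy 1.17.1 and matplotlib 3.10.9 under Python 3.11.15. March5 was not matched by symbol and is not reported, nor are 1 other listed gene and the promoter of Bnip3l. The other experiments of the study were not analysed here.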

Additional observations from a re-analysis of the deposited data

How the results depend on the processing

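Dnm1l as higher and Mfn2, Fis1, Pink1 and Bnip3 as lower kept their direction and stayed past the FDR in all 18 alternatives. Opa1 did not pass in 3, replicates 1 and 2 averaged (0.51), the GC correction and the GC and length correction, which turned it to -0.076. Of the other log2 fold changes, Mff turned to 0.64 with library totals, 0.27 with totals without the 20 most abundant genes, 0.22 with upper-quartile scaling, 0.02 without OEx replicate 2 and 0.065 without Ctrl replicate 3 (from -0.052 to 0.065 over the fits without 1 mouse). With GC and with GC and length Mff was past the FDR and lower, at -0.81 and -1.08. Bnip3l turned to -0.17 with the GC correction and -0.16 with GC and length, Fundc1 to -0.39 and -0.16, and Mfn1 to -0.037 with GC and length. For scalings the shift of the median of all genes is by construction, and for the rest the cause was not tested.

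Higher and lower genes past the FDR, 3941 and 4680 over all genes, were 7307 and 1798 with library totals, and called genes, 1653 and 2021, were 3923 and 589. Without the 20 most abundant genes in the totals 2523 and 1204 were called, and with upper-quartile scaling 1326 were called lower. Of the 10 genes, 6 were past the FDR and higher with library totals, 6 without the 20 most abundant genes, 5 with upper-quartile scaling, and 1 with each GC correction and with replicates averaged. Called higher were 4 with library totals and 0 with each GC correction. Called lower were 1 with library totals, 2 without the 20 most abundant genes and 2 with the GC correction. Of the 80 tested genes of the 7 lists, 15 were past the FDR and higher and 44 lower. With library totals 39 were higher and 17 lower, and with GC and length 7 were higher and 53 lower. On log2(FPKM + 1) the ratio differences were -2.16 for Bnip3 to Bnip3l and -2.81 for Fis1 to Dnm1l. On that scale with the GC correction, and with GC and length, they were 1.01 and 0.97 for Mfn1 to Mfn2, 0.80 and 0.92 for Dnm1l to Opa1, -0.15 and 0.44 for Fis1 to Mff, -2.18 and -1.95 for Bnip3 to Bnip3l, and -1.89 and -1.48 for Fis1 to Dnm1l. Leaving out 1 mouse gave 2 to 4 of the 10 genes past the FDR and higher, with 4 without Ctrl replicate 3, where 3933 of 12833 genes were (3443 to 3955 over these fits).

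The correlation of deviations between mice that share a replicate number was -0.230 (from -0.307 to -0.189), against 0.0951 for other pairs. Replicates 1 and 2 were close within each group, so these values mostly reflect how replicate 3 differed from them. OEx replicate 1 gave -0.194 with Ctrl replicate 1 and -0.229 with Ctrl replicate 2. The check therefore cannot decide whether the numbers pair the mice. In a fit with a replicate block, 4 of the 10 genes were past the FDR and higher and 4 lower, Bnip3l (limma FDR 0.0444) and Fundc1 (0.0484) having passed, and the 5 ratios could reach no exact paired p below 0.25. No other call of the 10 genes changed with the block. Bnip3 in OEx mice, with 99 to 112 reads, has the largest counting error of the set.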
